A study of Mus musculus with 24 samples.

Results

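Gene expression was compared between injured dorsal root ganglia of mice labelled DBA and injured ganglia of mice labelled C57, each taken 5 days after the sciatic nerve was crushed. The samples were chosen by strain and treatment label, 4 of injured DBA and 4 of injured C57 ganglia, which is 8 of the 24 samples of the series. The other samples are 4 naive ganglia of each strain and 4 naive and 4 injured ganglia of CAST mice. Naive DBA and naive C57 samples are used here as a second, independent pair of groups of the same strains. The CAST samples enter the estimate of the spread, the filter that sets which genes are tested, and some alternative settings. Their levels are not compared here. The study concerns how strains differ in the regrowth of injured axons, and the direct question here is which genes stand at different levels in injured ganglia of these strains. No transgene, deleted allele or drug is named for any group, and the labels give neither the substrain nor the age of the animals. The labels do not say which ganglia along the spine were taken, whether animals were pooled, or whether the naive animals had a sham operation, which the treatment protocol mentions. The series design calls the 4 samples of a group biological quadruplicates, so p-values measure the spread between them.

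As background, a dorsal root ganglion holds the cell bodies of sensory neurons, wrapped by satellite glia and mixed with Schwann cells, macrophages, fibroblasts and vessels. When their peripheral axons are cut or crushed, sensory neurons switch on a growth programme of transcription factors such as Atf3, Jun and Sox11. They also make neuropeptides that are scarce at rest, such as galanin and neuropeptide Y, and lower many genes of pain-sensing neurons (nociceptors), while satellite glia become reactive and macrophages gather. DBA and C57 are inbred strains that differ in many genetic variants, so a difference in level between them may also be present without injury.

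The deposited values are FPKM, fragments per kilobase of gene and per 1 M reads, with the kilobase term here being the whole span of the gene on the genome. Levels were therefore compared between groups for the same gene, or for the summed FPKM of the same list, and never between genes. Such a sum is led by its members of highest FPKM and says little about the others. A fold is the ratio of mean FPKM. A log2 fold change is the difference of mean log2(FPKM + 1), DBA minus C57, with its standard error (SE). Fold changes of genes at low FPKM come out too small on it. Genes counted as called had an adjusted p under 0.05 in limma, after Benjamini-Hochberg adjustment over all 27046 genes tested, and every adjusted p below is of this kind. The interaction is the difference between DBA and C57 in injured ganglia minus that in naive ganglia, on the same log2 scale. Because ganglia were profiled whole, fewer cells of a type and less RNA per cell cannot be told apart in any value below.

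The 8 samples had recovered totals of 51.37 to 124.59 M reads, of which 63.2% to 64.2% lay in genes. The lowest total was that of injured C57 replicate 3, which also stood apart from the other samples on the second principal component, at -16.22 against -8.39 to 8.79, with 14.5% of the variance. The first component, with 57.4%, separated the strains, with C57 from -19.36 to -14.37 and DBA from 15.69 to 16.97. Pou4f1, a transcription factor that defines sensory neurons, was present in all 8 samples, at 18.03 to 22.04 FPKM in injured C57 and 15.1 to 16.6 in injured DBA. Strain was checked on genes known to vary between inbred strains, described at the end. For 14 of 16 of them the 2 strains did not overlap, beside 33.2% of all genes tested. Atf3, the marker of axon injury, lay at 20.8, 17.5, 18.03 and 16.1 FPKM in injured C57 and 19.8, 17.6, 18.4 and 17.9 in injured DBA, against 0.246 to 0.349 in naive C57 and 0.262 to 0.344 in naive DBA.

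One group stood apart before any other result. The injured DBA samples lay far below the naive DBA and all C57 samples for 3 posterior Hox genes. Hox genes mark position along the body axis and those of the highest-numbered groups mark lumbar and sacral levels. Hoxc11 (chr15:102954427-102957708, mm10, plus strand) lay at 0.00616, 0.0108, 0.00285 and 0.00528 FPKM in the 4 injured DBA samples and at 0.562, 0.672, 0.848 and 0.697 in injured C57. Naive samples of both strains had it, at 0.451, 0.326, 0.785 and 0.495 in C57 and 0.932, 0.775, 1.47 and 0.492 in DBA. Hoxd10 was at 0.656, 0.395, 0.517 and 0.475 FPKM in injured DBA against 2.47, 2.77, 2.94 and 2.92 in injured C57, and naive DBA samples lay at 2.42 to 3.85. Hoxd11 was at 0.0751 to 0.163 in injured DBA against 0.618 to 0.827 in injured C57 and 0.771 to 1.12 in naive DBA. For all 3 genes the injured DBA samples lay below every sample of the other 3 groups. The log2 fold changes of injured DBA against injured C57 were -0.75 (SE 0.11, adjusted p = 1.87e-05), -1.32 (SE 0.105, adjusted p = 4.73e-09) and -0.62 (SE 0.0722, adjusted p = 9.27e-07). The interaction, called for 9.03% of all genes, was called for each, at -1.07 for Hoxc11, -1.41 for Hoxd10 and -0.74 for Hoxd11.

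Other posterior Hox genes differed less. Of 15 tested Hox genes of paralog groups 7 to 13, a list added after values were seen, 2 were called higher and 8 lower in injured DBA. Over all genes tested, 32.5% were called, 18.2% higher and 14.3% lower. Hoxb7 and Hoxb8, of more anterior groups, were higher in injured DBA (1.3-fold and 1.37-fold) and also in naive DBA. Hoxd9 was 1.19-fold and Hoxc10 1.26-fold lower in injured DBA, whereas naive DBA was at 1.11-fold and 1.04-fold the level of naive C57. The call for Hoxd9 was lost without injured C57 replicate 2 (adjusted p = 0.052 in limma) or without injured DBA replicate 1, 2 or 4 (0.0575, 0.0622 and 0.0597). The segment of the ganglia is not given in the labels, so the position along the spine and the strain cannot be told apart in injured samples, and the part of this pattern in the results below was not tested.

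**Figure D1:**
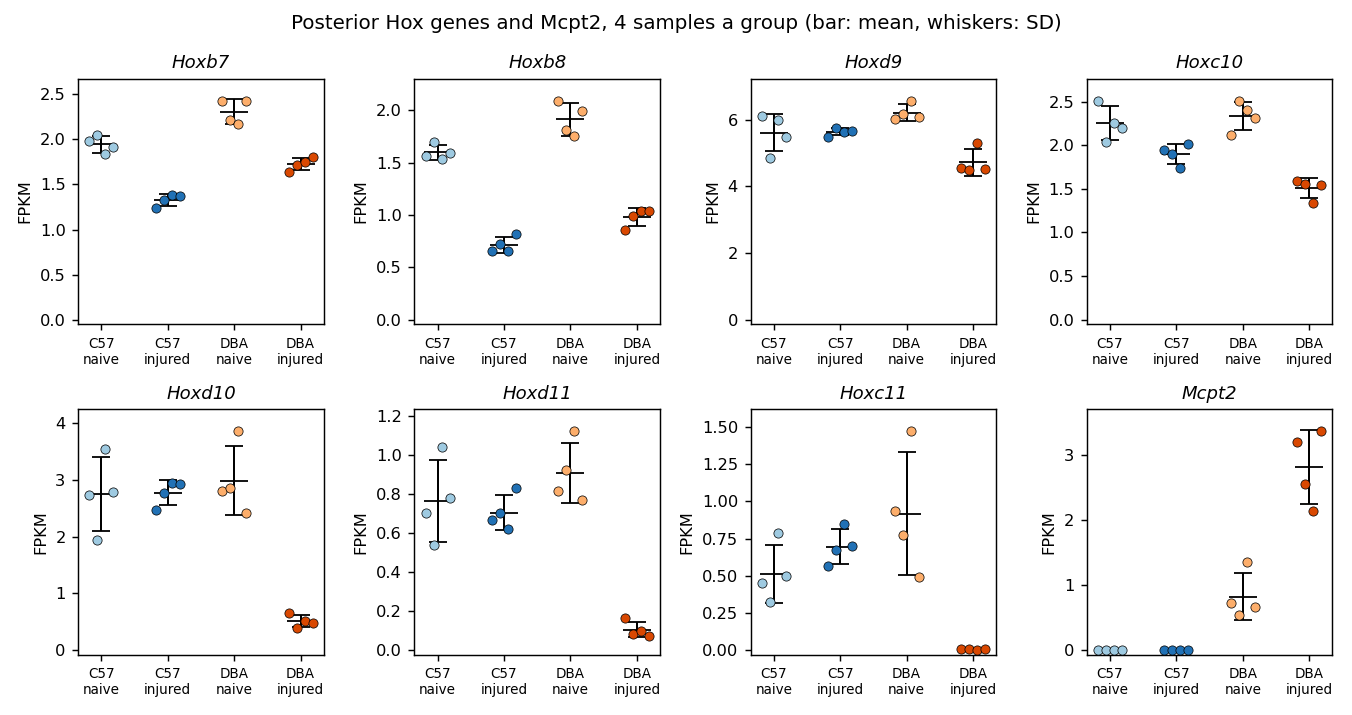
FPKM (vertical axes, linear, each from 0) of 7 posterior Hox genes and of Mcpt2 in naive and injured ganglia of C57 and DBA; points are samples, horizontal bars the mean and whiskers the SD of 4 samples. Hoxd10, Hoxd11 and Hoxc11 are lowest in the 4 injured DBA samples, whereas Mcpt2 is near 0 in all 8 C57 samples.

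Across all genes, 8782 of 27046 were called between the injured groups, 4918 higher and 3864 lower in DBA (56.0% higher), and the median log2 fold change of all genes was 0.002. The excess of higher calls depends on the scaling: median-ratio scaling gave 4476 higher and 4520 lower (49.8% higher), and upper-quartile scaling 51.8% higher. The groups of 4 samples did not overlap for 33.2% of the genes tested and for 7477 of the called genes. Most differences were small: 200 called genes reached 2-fold on the log2(FPKM + 1) scale, 118 higher and 82 lower, and 51 of the 200 were protein-coding. This count depends on the scale, and it was 691 with a pseudocount of 0.1. Naive DBA against naive C57 gave 5769 calls, or 21.3% of the genes. Both comparisons called 3842 genes in the same direction, which is 43.7% of the calls in injured ganglia and 66.6% of those in naive ganglia. The interaction was called for 2443 genes, with 1456 above 0 (5.38%) and 987 below 0 (3.65%). With voom on estimated reads, 944 were above 0 and 1000 below. A called difference in injured ganglia together with a called interaction of the same sign was found for 1225 genes higher and 573 lower in DBA, and 1323 of these were not called in naive ganglia.

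Injury-induced neuropeptides held some of the largest differences. Of 18 peptides and peptide receptors, 10 were called higher and 4 lower, with a median log2 fold change of 0.09, and in naive ganglia 4 were higher and 5 lower. The interaction was called above 0 for 8 and below 0 for 0 of them. Their summed FPKM was 292 to 329 in injured C57 and 658 to 678 in injured DBA, against 70.9 to 86.3 and 72.5 to 77.6 in the naive groups. Gal, described below, made up a large part of the sum in injured DBA. The reference promoters of the 5 matched peptides with the largest log2 fold changes are shown here. As background, the injury-induced factors Atf3, Jun and Fos bind AP-1 and CRE motifs. The sequences are the 250 bases before the start site, 5′ to 3′ on the strand of the gene, from RefSeq for build GRCm38.p6, whose reference animal is of the C57 type, so that variants of DBA are not in them. Capitals mark the short CRE motif TGACG or the AP-1 motif TGANTCA, each searched on both strands.
Gal, chr19:3414545-3414794, minus strand: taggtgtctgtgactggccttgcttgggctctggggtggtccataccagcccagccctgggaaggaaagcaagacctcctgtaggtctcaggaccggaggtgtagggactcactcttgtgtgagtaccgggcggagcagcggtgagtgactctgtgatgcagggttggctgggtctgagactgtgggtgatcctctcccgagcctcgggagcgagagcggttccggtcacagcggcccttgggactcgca
Npy, chr6:49822460-49822709, plus strand: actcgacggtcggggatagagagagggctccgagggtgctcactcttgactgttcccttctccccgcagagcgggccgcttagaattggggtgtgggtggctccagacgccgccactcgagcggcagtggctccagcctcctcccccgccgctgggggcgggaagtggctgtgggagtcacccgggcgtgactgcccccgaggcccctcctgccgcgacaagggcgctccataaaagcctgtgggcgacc
Adcyap1, chr17:93198767-93199016, plus strand: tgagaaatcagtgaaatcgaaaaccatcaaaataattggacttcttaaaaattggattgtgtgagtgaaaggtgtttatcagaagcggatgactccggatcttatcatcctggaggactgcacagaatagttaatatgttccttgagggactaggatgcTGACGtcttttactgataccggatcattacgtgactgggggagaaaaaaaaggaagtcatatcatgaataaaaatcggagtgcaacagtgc
Cartpt, chr13:99900684-99900933, minus strand: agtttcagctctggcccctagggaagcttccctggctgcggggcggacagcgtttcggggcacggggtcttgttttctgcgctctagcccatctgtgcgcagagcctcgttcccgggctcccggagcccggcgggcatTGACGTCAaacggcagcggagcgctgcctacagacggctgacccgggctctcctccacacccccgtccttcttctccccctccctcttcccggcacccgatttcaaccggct
Nts, chr10:102490419-102490668, minus strand: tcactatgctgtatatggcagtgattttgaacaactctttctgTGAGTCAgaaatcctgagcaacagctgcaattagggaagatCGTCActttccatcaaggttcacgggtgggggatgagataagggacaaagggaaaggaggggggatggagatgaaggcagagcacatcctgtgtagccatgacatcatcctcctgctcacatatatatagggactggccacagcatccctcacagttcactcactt

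Of the 10 peptide genes called higher, 8 were matched in the promoter table. TGACG was in 5 of these 8 windows, and 17.8% of all 32851 promoter windows of the same length held it. TGANTCA was in 1 of the 8 (Nts, starting 207 bases before the start), against 6.7% of all windows. The STAT motif TTCNNNGAA was in 0 of the 8, against 7.0%. In Cartpt the capitals hold TGACG on both strands, 2 matches that overlap each other. The motifs do not overlap in the other sequences shown, the Gal and Npy windows hold neither motif, and a match is no evidence of a bound site. Peptide genes not called higher were not counted apart, and the part of these motifs in the strain difference was not tested.

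Gal encodes galanin, a peptide that sensory neurons make after axon injury, and it had the largest difference of the list. It lay at 96.6, 87.2, 83.7 and 74.4 FPKM in injured C57 and at 347, 345, 323 and 346 in injured DBA. The injured groups did not overlap, whereas naive means were 2.11 ± 0.213 FPKM in C57 and 2.17 ± 0.26 in DBA (SD, n = 4). In injured ganglia the level was 3.98-fold higher in DBA (log2 fold change 1.99, SE 0.148, adjusted p = 1.84e-09), and the interaction was 1.96 (SE 0.209, adjusted p = 2.15e-06). The gene lies at chr19:3409915-3414544 in mm10 on the minus strand.

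Npy, neuropeptide Y, was at 14.6, 14.98, 14.5 and 14.2 FPKM in injured C57 and 32.9, 35.04, 33.4 and 34.1 in injured DBA, and it was close to 0 in naive samples, at 0.0427 and 0.106 FPKM. The injured groups did not overlap and the ratio was 2.32-fold (log2 fold change 1.16, SE 0.0561, adjusted p = 2.2e-12), while the ratio of the naive means was 2.48-fold. The interaction of Npy was 1.08 on this scale but -0.109 with voom (adjusted p = 0.939). Adcyap1 encodes PACAP, a peptide that protects neurons, and lay at 24.8, 22.6, 27.5 and 24.6 FPKM in C57 and 48.3, 46.3, 55.7 and 50.9 in DBA. It was 2.02-fold higher in injured DBA and 0.971-fold the level of C57 in naive ganglia, with an interaction of 1.02 (SE 0.117, adjusted p = 5.41e-06).

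Nts, the precursor of neurotensin, was at 10.9, 9.33, 11.8 and 8.93 FPKM in injured C57 and 18.5, 16.1, 18.5 and 15.7 in injured DBA, which is 1.68-fold higher (log2 fold change 0.70, SE 0.0907, adjusted p = 3.97e-06). Crh, corticotropin-releasing hormone, was at 6.02, 4.8, 5.18 and 4.19 in C57 and 7.86, 7.98, 8.9 and 7.98 in DBA, 1.62-fold higher, with both naive groups near 0.0448 FPKM. Its interaction of 0.61 was called here and not with voom (0.692, adjusted p = 0.568). Neither peptide overlapped between the injured groups. Ucn2, urocortin 2, a relative of Crh, was outside the list and was named by the size of its interaction. It was at 0.502, 0.424, 0.524 and 0.466 FPKM in injured C57 and 4.6, 4.19, 5.05 and 3.26 in injured DBA, 8.93-fold higher, against 0.135 and 0.209 FPKM in naive C57 and DBA (interaction 1.73, SE 0.123, adjusted p = 6.93e-09).

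Some members differed in naive ganglia in other ways. Cartpt, the precursor of CART peptides, was 2.09-fold higher in injured DBA (5.59 against 2.68 FPKM) and 2.03-fold higher in naive DBA. Vgf, a secreted neuronal growth-factor target, was 1.36-fold higher in injured DBA but lower in naive DBA, at 37.05 against 45.6 FPKM, and was called in both. Among the 4 members called lower, Nppb, a natriuretic peptide of itch neurons, was at 3.58, 4.72, 3.77 and 3.69 FPKM in injured C57 and 1.34, 2.14, 1.25 and 1.68 in injured DBA, and Npy1r, a receptor of neuropeptide Y, at 4.17 to 4.32 and 2.23 to 2.64. Both were also called lower in naive DBA.

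**Figure D2:**
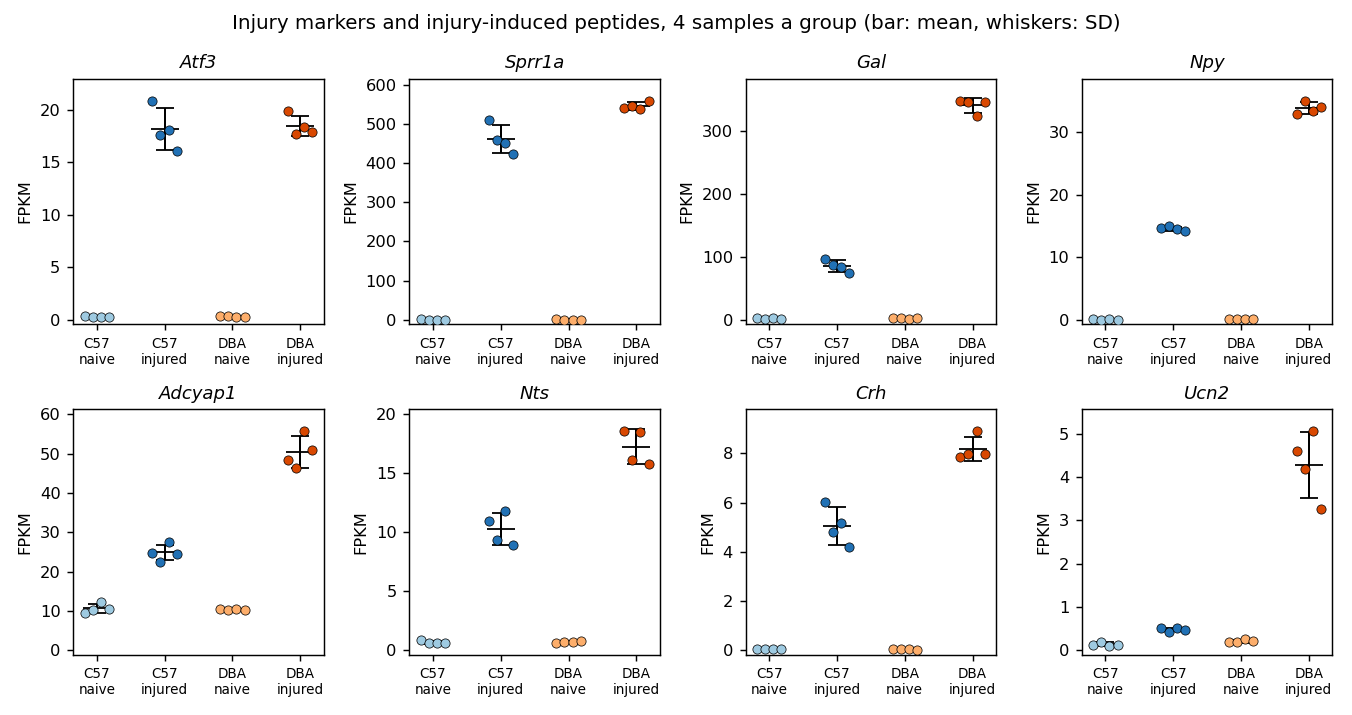
FPKM (vertical axes, linear, each from 0) of the injury markers Atf3 and Sprr1a and of 6 injury-induced peptides in 4 groups; points are samples, horizontal bars the mean and whiskers the SD of 4 samples. Atf3 overlaps between the injured strains, whereas each peptide is higher in all 4 injured DBA samples than in any injured C57 sample.

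The markers of axon injury Atf3, Sprr1a, Ecel1 and Gpr151 were not called. Mean FPKM of Atf3 was 18.1 ± 1.99 for injured C57 and 18.4 ± 0.975 for injured DBA (SD, n = 4), and the groups overlapped (log2 fold change 0.028, SE 0.0659, adjusted p = 0.798). Its log2 fold change changed sign without injured C57 replicate 4 (-0.024) or injured DBA replicate 1 (-0.005). Sprr1a, a small proline-rich protein of regrowing neurons, was 1.18-fold higher in DBA and was not called (adjusted p = 0.322). Its groups did not overlap, at 424 to 510.0 and 538 to 559 FPKM. It was called in a fit of the 8 injured samples with the replicate number as a block (adjusted p = 0.047) and in one of the groups compared alone (0.0184). Ecel1, a peptidase induced in damaged neurons, and Gpr151, an orphan receptor induced with it, were not called either, with log2 fold changes of -0.026 (SE 0.0608, adjusted p = 0.797) and -0.15 (SE 0.1, adjusted p = 0.282). The value of Ecel1 rested on injured C57 replicate 1, and was 0.065 without it. A p above 0.05 does not show that the levels were equal.

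Of the 32 growth-associated and cytoskeletal genes, 11 were called higher and 6 lower, and 15 were not called. Without injured DBA replicate 2, 3 were called lower. Gap43, a protein of growth cones, was at 5.53, 5.07, 5.26 and 5.1 FPKM in injured C57 and 6.02, 5.67, 6.06 and 6.2 in injured DBA. The injured groups did not overlap, although naive DBA was lower than naive C57, at 1.1 against 1.34 FPKM, and the interaction was 0.32 (SE 0.066, adjusted p = 0.00329). Tubb6, a beta-tubulin, was 1.46-fold higher in injured DBA and 1.62-fold lower in naive DBA. Gadd45a, a stress-induced gene, was 1.28-fold higher in injured DBA (25.3 against 19.8 FPKM, adjusted p = 0.00157).

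Transcription factors of the injury response were more often called higher than lower. Of 21, 13 were called higher and 1 lower (Stat3, by a log2 fold change of -0.07), with a median log2 fold change of 0.19. In naive ganglia 2 were higher and 2 lower, and the interaction was called above 0 for 7 and below 0 for 0. With the replicate number as a block in the 8 injured samples 9 were higher and 0 lower, and the call of Stat3 was lost (adjusted p = 0.07). It was also lost without injured C57 replicate 1, 2 or 3 or injured DBA replicate 2 or 4, and without injured DBA replicate 3 the number called lower was 2. Fos, a partner of Jun in AP-1 and an early-response gene, was at 1.07, 1.06, 0.726 and 0.974 FPKM in injured C57 and 4.3, 3.38, 3.81 and 3.99 in injured DBA. All DBA samples lay above all C57 samples (4.04-fold, log2 fold change 1.32, SE 0.0772, adjusted p = 4.64e-11), and naive DBA was 1.65-fold higher than naive C57. Cebpd, a factor of cytokine responses, was 2.17-fold higher in injured DBA and its interaction was 0.76 (SE 0.164, adjusted p = 0.00465). Jun was at 43.7 to 54.3 FPKM in C57 and 61.1 to 67.9 in DBA, and Sox11, a factor of developing neurons, at 12.04 to 16.7 and 18.1 to 21.4. Both groups were apart in these samples, and the ratios were 1.32-fold and 1.4-fold.

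Early-response genes also answer to the handling of tissue. Of 16 genes of a handling-stress list, 11 were called higher and 1 lower in injured DBA, and 4 and 2 in naive DBA. The interaction was called above 0 for 3 and below 0 for 0. The list shares Fos, Egr1 and Junb with the factors above. Egr1 was 2.13-fold and Junb 1.46-fold higher in injured DBA, and Egr1 was 1.55-fold higher in naive DBA. Hspa8, a constitutive chaperone, was the member called lower, at 59.4 against 80.8 FPKM. The summed FPKM of this list was 214 to 234 in injured C57 and 247 to 255 in injured DBA, and its part in the counts of transcription factors was not tested.

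Genes of gp130 cytokine signalling, the pathway of interleukin 6, LIF and CNTF, went both ways, with 8 of 18 higher and 4 lower. Socs3, the feedback inhibitor that this pathway induces, was at 4.996, 4.92, 4.21 and 4.31 FPKM in injured C57 and 9.82, 9.05, 9.3 and 10.02 in injured DBA. The groups did not overlap (2.07-fold, log2 fold change 0.91, SE 0.11, adjusted p = 1.6e-06), and naive means were 1.87 and 1.92 FPKM (interaction 0.88, SE 0.156, adjusted p = 0.000848). Cntf, a ligand held by Schwann cells, was 1.65-fold higher in injured DBA and 1.9-fold higher in naive DBA. Of 22 neurotrophic factors and receptors, 7 were higher and 4 lower. Gdnf, a glial factor for sensory neurons, lay at 0.0144, 0.00906, 0.0139 and 0.0122 FPKM in injured C57 and 0.156, 0.153, 0.136 and 0.109 in injured DBA, so that all DBA samples stood above all C57 samples (11.2-fold by means), and both naive groups were near the C57 level. Csf1, through which injured neurons reach macrophages and microglia, was 1.24-fold higher in injured DBA. Of 27 genes of activin, BMP and TGF-beta signalling, 11 were higher and 1 lower (Smad4), among them Fst, the activin antagonist follistatin, at 5.24 to 6.67 FPKM in C57 and 8.89 to 10.3 in DBA (interaction 0.66, SE 0.114, adjusted p = 0.000572).

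Nociceptor genes stood lower in injured DBA. Of 24, 20 were called lower and 0 higher, all 24 log2 fold changes were below 0, and their median was -0.28 against 0.002 over all genes. Samples of the 2 groups did not overlap for 20 of the 24, beside 33.2% of all genes. In naive ganglia 10 were lower and 2 higher, and the interaction was below 0 for 9 and above 0 for 0. Over all genes, 21.3% were called in naive ganglia, and the interaction was called below 0 for 3.65%. The summed FPKM of the list was 146 to 179 in injured C57 and 111 to 125 in injured DBA, against 258 to 285 in naive C57 and 220 to 236 in naive DBA.

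Mrgprb4, a receptor of fibres that sense gentle stroking, was at 4.11, 6.14, 5.98 and 6.05 FPKM in injured C57 and 0.889, 1.62, 1.25 and 1.06 in injured DBA. The groups were apart by 4.62-fold of their means (log2 fold change -1.57, SE 0.135, adjusted p = 1.5e-08), and naive DBA was 1.68-fold lower. Mrgprb5, a related receptor, was 2.83-fold lower (1.05 against 2.96 FPKM, adjusted p = 3.17e-05). Tac1, the precursor of substance P, was at 11.04, 13.7, 14.1 and 12.3 in injured C57 and 6.62, 7.45, 7.27 and 7.003 in injured DBA, with naive levels of 23.2 and 21.9 FPKM. Its injured groups did not overlap, and the interaction was -0.69 (SE 0.117, adjusted p = 0.000533).

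Both sodium channels that set the firing of nociceptors were lower. Scn10a (Nav1.8) was at 4.41, 5.94, 4.9 and 5.94 FPKM in injured C57 and 2.81, 3.31, 2.73 and 2.79 in injured DBA, 1.82-fold lower (log2 fold change -0.68, SE 0.107, adjusted p = 4.24e-05). Scn11a (Nav1.9) was 1.78-fold lower, at 2.32 to 2.88 against 3.66 to 5.08 FPKM. Prdm12, a factor that specifies nociceptors, was 1.69-fold lower, and Calcb and Calca, which encode forms of CGRP, were 1.51-fold and 1.31-fold lower. Of these, the interaction was called for Scn11a (-0.56), Prdm12 (-0.39) and Calcb (-0.39). It was not called for Scn10a (-0.46, SE 0.152, adjusted p = 0.0687) or Calca. Htr3a, a serotonin-gated channel of sensory neurons outside the list, was at 4.24, 4.89, 4.8 and 4.46 FPKM in injured C57 and 0.802, 1.23, 0.985 and 1.05 in injured DBA, 4.52-fold lower, and 1.51-fold lower in naive DBA (interaction -0.95, SE 0.1, adjusted p = 1.89e-06).

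**Figure D3:**
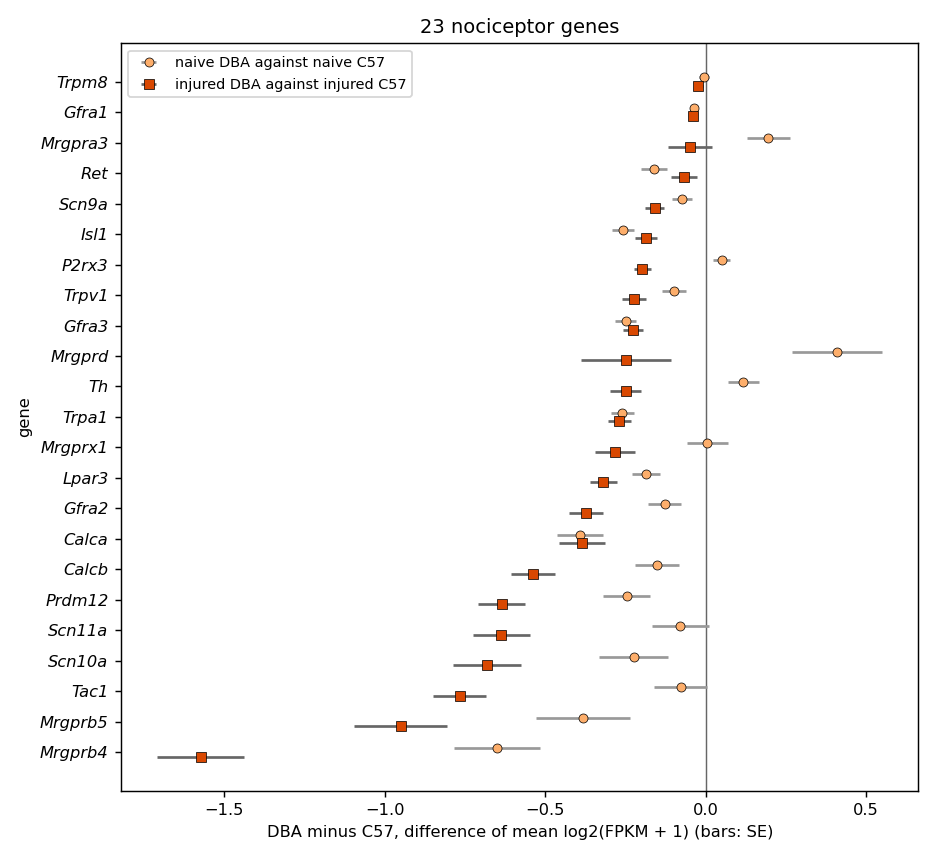
Difference of DBA minus C57 in mean log2(FPKM + 1) (horizontal axis) for 23 of the 24 nociceptor genes (vertical axis), in injured (squares) and naive (circles) ganglia, 4 samples a group; bars are the SE. All 23 squares lie left of 0, and Mrgprb4, Mrgprb5, Tac1 and Scn10a lie furthest left.

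Genes of other neurons went both ways. Of 14 genes of large-diameter sensory neurons (touch and position sense), 5 were higher and 1 lower, and 5 were higher in naive DBA too. Spp1, osteopontin, was at 3.63 to 3.95 FPKM in injured C57 and 6.22 to 7.11 in injured DBA, and 2.23-fold higher in naive DBA. Hapln4, a protein of the matrix around axon nodes, was 1.48-fold, and Pvalb, a calcium buffer of position-sense neurons, 1.67-fold higher in injured DBA. Of 16 pan-neuronal genes, 1 was higher (Eno2) and 7 lower, among them Stmn1, a microtubule regulator, at 7.82 to 8.3 against 11.5 to 12.5 FPKM, and Pou4f1, 1.25-fold lower. Of 26 voltage-gated channel genes, 3 were higher (1 without injured C57 replicate 2 or 4 or injured DBA replicate 1, 3 or 4) and 10 lower, with the accessory subunit Scn2b 2.53-fold lower in injured and 1.76-fold lower in naive DBA. The summed FPKM of the pan-neuronal genes overlapped, at 814 to 969 in injured C57 and 837 to 958 in injured DBA.

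Glia differed in the other direction. Of 14 markers of reactive glia and repair Schwann cells, 10 were called higher and 1 lower, with a median log2 fold change of 0.12, and the interaction was above 0 for 7 and below 0 for 0. Gfap, the intermediate filament of reactive satellite glia, was at 0.212, 0.164, 0.202 and 0.148 FPKM in injured C57 and 2.96, 2.17, 2.23 and 2.2 in injured DBA. All DBA samples lay far above all C57 samples, the ratio was 13.2-fold (log2 fold change 1.51, SE 0.0551, adjusted p = 3.27e-14), and naive levels were 0.0486 ± 0.0139 and 0.159 ± 0.0314 FPKM (SD, n = 4). Vim, vimentin, was at 35.4, 33.6, 30.6 and 31.4 FPKM in C57 and 66.5, 64.7, 65.9 and 65.8 in DBA, and Nes, nestin, an intermediate filament of immature cells, was at 1.24, 1.15, 1.16 and 1.33 and 3.06, 3.07, 3.17 and 2.93. Neither overlapped between the injured groups, the ratios were 2.01-fold and 2.51-fold, and the interaction was 0.70 for Vim and 0.67 for Nes. Sox2, a factor of glial precursors, was 1.76-fold higher (8.59 to 10.2 against 5.12 to 5.67 FPKM).

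Satellite glia markers were higher for 7 of 12 and lower for 1, and the counts in naive DBA were the same. Kcnj10, the potassium channel of these cells, was 1.89-fold and Apoe, an apolipoprotein, 1.42-fold higher in injured DBA. Glul, glutamine synthetase, was the member called lower, at 19.1, 17.3, 19.3 and 17.6 FPKM in injured C57 and 10.96, 10.6, 11.9 and 10.7 in injured DBA (log2 fold change -0.68, SE 0.0559, adjusted p = 7.18e-09). Of 16 markers of myelinating Schwann cells, 10 were higher and 0 lower, and 12 were higher in naive DBA. Pmp2, a fatty-acid-binding protein of myelin, was at 3.1, 3.13, 4.61 and 3.26 in injured C57 and 10.1, 12.1, 10.97 and 11.2 in injured DBA, 3.15-fold higher, and 2.01-fold higher in naive DBA. Pmp22, a membrane protein of myelin, was 1.3-fold higher in injured DBA.

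**Figure D4:**
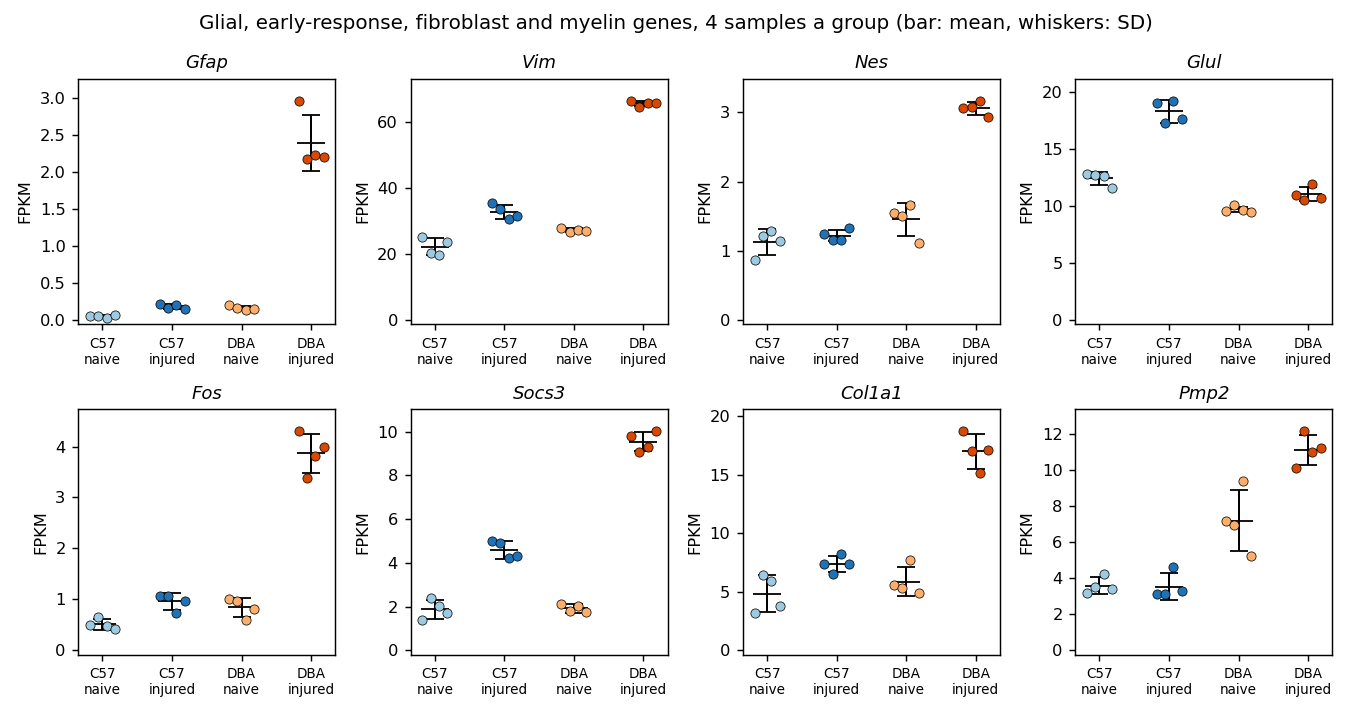
FPKM (vertical axes, linear, each from 0) of glial genes (Gfap, Vim, Nes, Glul), the early-response gene Fos, Socs3, the fibroblast collagen Col1a1 and the myelin gene Pmp2 in 4 groups; points are samples, horizontal bars the mean and whiskers the SD of 4 samples. Gfap, Fos and Socs3 stand highest in injured DBA, whereas Glul is higher in injured C57.

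Markers of fibroblasts and of macrophages were also more often called higher than lower. Of 14 fibroblast markers, 11 were called higher and 0 lower, with a median log2 fold change of 0.22. In naive DBA 2 were higher, and the interaction was called above 0 for 3 and below 0 for 0. Col1a1, collagen I, was at 7.38, 6.49, 8.2 and 7.35 FPKM in injured C57 and 18.7, 16.99, 15.1 and 17.1 in injured DBA, and naive levels were 4.81 ± 1.58 and 5.86 ± 1.25 (SD, n = 4). The injured groups did not overlap (2.31-fold, log2 fold change 1.11, SE 0.157, adjusted p = 1.22e-05). Col3a1, Col1a2 and the matrix protein lumican (Lum) were 1.96-fold, 1.88-fold and 1.65-fold higher. The summed FPKM of the fibroblast list was 37.9 to 46.8 in injured C57 and 63.7 to 73.3 in injured DBA, and that of the reactive glia list 115 to 133 and 177 to 186. Of 20 macrophage markers, 10 were higher and 1 lower (Gpnmb, which has a known variant in DBA and is described below). In naive DBA 2 were higher and 2 lower, and the interaction was called above 0 for 3 and below 0 for 0. Lyz2, lysozyme, was 1.62-fold and C1qa, a complement component, 1.33-fold higher, and the summed FPKM of the list was 48.6 to 58.4 in injured C57 and 67.7 to 80.2 in injured DBA.

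Of 13 neutrophil markers 0 were called, of 8 erythrocyte markers 0, of 17 lymphocyte markers 2 were higher and 1 lower, and of 12 endothelial markers 7 were higher and 0 lower. The single call among 14 skeletal muscle markers was Pvalb, which sensory neurons also make, and the single call among 9 adipocyte markers was Car3, named below. Of 9 markers of oligodendrocytes and astrocytes, 4 were higher and 1 lower, Gfap being one of them. Of 10 pericyte and smooth muscle markers, 4 were higher (2 without injured C57 replicate 1, 2 or 4 or injured DBA replicate 2 or 4), which is 40.0% called beside 32.5% over all genes. Single samples also moved other small counts. Without injured DBA replicate 2, 2 neutrophil and 1 erythrocyte markers were called higher, without injured C57 replicate 4 1 neutrophil marker was, and without injured C57 replicate 1 or injured DBA replicate 1 2 lymphocyte markers were lower. The part of these cells in the neuronal counts was not tested. Of 25 cell-cycle genes, 15 were higher and 2 lower, and the interaction was above 0 for 14. In a fit of the 8 injured samples with the replicate number as a block, 9 were higher. Their levels were low: Top2a, a topoisomerase of dividing cells, was at 0.0588 to 0.093 FPKM in injured C57 and 0.151 to 0.226 in injured DBA. Mki67, a marker of dividing cells, was at 0.147 to 0.268 and 0.23 to 0.382, and its call was lost with the block (adjusted p = 0.0751). Ccnd1, cyclin D1, which neurons and glia also use outside division, was 1.4-fold higher, and Mcm6, a replication helicase, was 1.97-fold lower in injured and 5.13-fold lower in naive DBA.

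**Figure D5:**
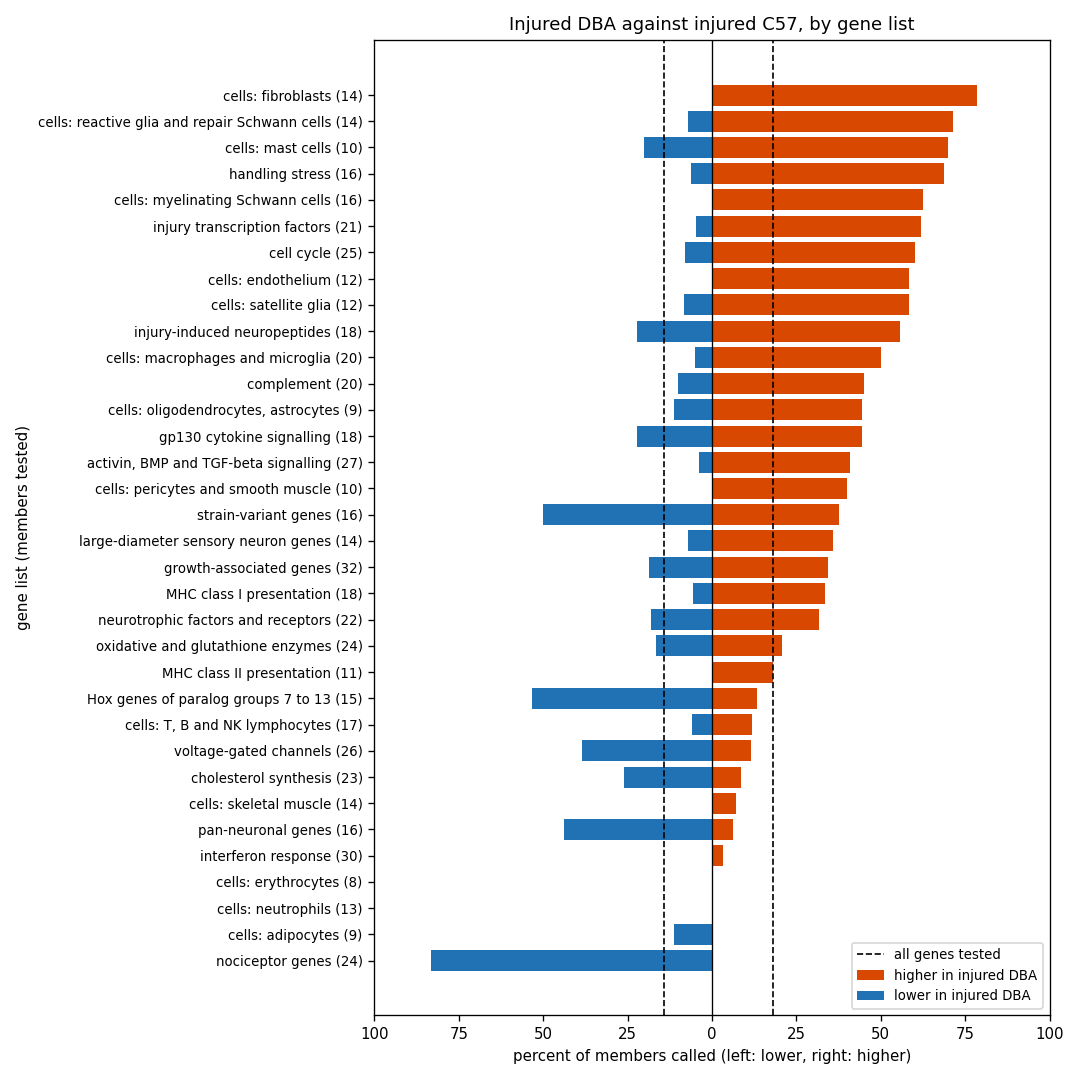
Percent of the tested members of each gene list (rows, with the number tested) that were called lower (left, blue) or higher (right, orange) in injured DBA against injured C57; dashed lines mark the same percent over all genes tested, 14.3 lower and 18.2 higher. Fibroblast, reactive glia and mast cell markers reach furthest to the right, and nociceptor genes furthest to the left.

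Of 30 interferon-response genes, 1 was called higher (Xaf1, 2.01-fold) and 0 lower, which is 3.3% called beside 32.5% over all genes. In naive DBA 9 were lower and 0 higher, where 21.3% of all genes were called. The interaction was called above 0 for 1 of the 30 and below 0 for 0. With the replicate number as a block in the 8 injured samples, 4 interferon-response genes and 2 class II genes were called lower, against 0 of either without it. Without injured DBA replicate 3, 1 of each was called lower, and so were 2 of the class I genes below in place of 1. Of 20 complement genes, 9 were higher and 2 lower (1 with the block, and 1 without injured C57 replicate 4 or injured DBA replicate 1 or 2). C4b was at 5.3 to 5.85 FPKM in injured C57 and 9.45 to 10.8 in injured DBA, and C3, the central component, was 3.34-fold higher at a low level (0.5 against 0.15 FPKM). Naive means of C4b were 2.45 and 2.49 FPKM (interaction 0.71, SE 0.154, adjusted p = 0.00485). Cd55, which shields cells from complement, was 2.08-fold lower in injured DBA and lower in naive DBA too. Of 18 class I presentation genes, 6 were higher and 1 lower, and of 11 class II genes 2 were higher. H2-Q4 and H2-Q6 were 2.68-fold and 3.54-fold and H2-DMa 1.76-fold higher, while H2-T24 was 3.46-fold lower. These genes have close relatives, and the treatment of reads that fit several of them is not given in the sources used here, so their values are uncertain. Of 23 cholesterol-synthesis genes, 2 were higher (1 without injured C57 replicate 2, 3 or 4 or injured DBA replicate 1 or 4) and 6 lower, with Sc5d, a late enzyme of the pathway, 1.57-fold lower in injured and 1.52-fold lower in naive DBA. The share called was 38.9% for class I and 34.8% for cholesterol synthesis, near the 32.5% over all genes. For class II it was 18.2%, with 0 called lower, and 18.2% of all genes were called higher.

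Beyond the lists, protein-coding genes with the largest differences were named after their values were seen, since the largest differences of all genes were those of small RNA copies and pseudogenes. Cyp26a1, which breaks down retinoic acid, was at 1.04, 0.83, 0.973 and 0.791 FPKM in injured C57 and 4.14, 3.44, 3.39 and 3.89 in injured DBA, 4.09-fold higher, with 0.029 and 0.106 in the naive groups. C1ql2, a secreted synapse organiser, was at 0.36, 0.322, 0.278 and 0.218 in C57 and 2.36, 2.31, 3.03 and 2.85 in DBA, and Cxcl14, a chemokine, at 0.209, 0.169, 0.209 and 0.183 and 1.94, 1.87, 1.84 and 1.39. Each of the 3 genes was low in naive ganglia of both strains and did not overlap between the injured groups. Fgl2, a fibrinogen-like protein of immune cells, was 3.19-fold higher in injured DBA (interaction 1.15, SE 0.13, adjusted p = 5.06e-06). The interaction of Cyp26a1 was 1.20 and was not called with voom (0.266, adjusted p = 0.802). The histone gene Hist1h4i was 2.89-fold and the MHC-region gene Gm11127 9.73-fold higher, both with close relatives in the genome.

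Several genes were lower in injured DBA than in injured C57 with an interaction below 0. Tmem88b, a membrane protein gene, was at 8.13, 6.64, 8.97 and 7.14 FPKM in injured C57 and 2.05, 1.85, 2.19 and 2.01 in injured DBA, while naive samples of both strains were near 0.618. Scpep1, a serine carboxypeptidase (chr11:88924020-88955465, mm10, minus strand), was at 4.01, 3.63, 3.78 and 3.51 in C57 and 0.999, 0.932, 0.993 and 0.968 in DBA, against 0.763 and 0.614 in the naive groups (interaction -1.13, SE 0.0576, adjusted p = 5.7e-11). The pseudogene 2210409E12Rik, which lies close to Scpep1 at chr11:88972657-88973002, was at 1.01 to 1.51 FPKM in injured C57 and 0.0134 to 0.13 in injured DBA. Car3, a carbonic anhydrase also rich in fat and muscle, was 2.25-fold lower in injured DBA, and the call was lost on the log2(CPM + 0.5) scale (adjusted p = 0.0543). By the same rule AL646096.1 and Gm13644, which were not matched to a position, were 3.24-fold and 3.17-fold lower. Mmp25, a membrane-bound metalloproteinase, was 2.88-fold lower in injured and 1.73-fold lower in naive DBA (interaction -0.58, SE 0.0546, adjusted p = 4.39e-07).

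Other protein-coding genes were lower in both states. Tmem45b, a membrane protein gene, was at 2.62, 3.09, 3.03 and 2.77 FPKM in injured C57 and 0.207, 0.237, 0.189 and 0.17 in injured DBA, 14.4-fold lower, and 8.21-fold lower in naive DBA. Ppp1r3e, a regulator of glycogen metabolism, was 3.63-fold, Aqp1, a water channel, 2.32-fold, and Ccl21c, one of several near-identical chemokine copies and so uncertain, 3.75-fold lower in injured DBA. All 3 were called lower in naive DBA as well.

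Genes present in one strain only were few. By the rule of at most 3 estimated reads in every sample of one group and at least 50 in every sample of the other, 2 were present in injured DBA only, among them Mcpt2, and 1 in injured C57 only (Olfr1033). Mcpt2, a protease of mast cells, was at 0.00371, 0.00319, 0 and 0 FPKM in injured C57 and 3.21, 2.56, 2.15 and 3.37 in injured DBA, and 0.546 to 1.36 in naive DBA. Of 10 mast cell markers, a list added after values were seen, 7 were higher and 2 lower. Cma1 and Tpsb2, mast cell proteases, were 5.36-fold and 2.61-fold, and Mcpt4 2.97-fold higher. Kit, a growth factor receptor of mast cells, was called lower, at 0.32 against 0.392 FPKM. With the block the calls of Tpsb2 (adjusted p = 0.0514) and Mcpt4 (0.0557) were lost and 4 of 10 were higher. Olfr1033, an olfactory receptor gene, was listed at 0 in all 4 injured DBA samples and at 0.056, 0.0373, 0.154 and 0.04 FPKM in injured C57. Its call was lost with the block (adjusted p = 0.0862).

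Genes known to vary between inbred strains checked the labels. Of 16, 6 were called higher and 8 lower in injured DBA, and 6 and 8 were called in naive DBA. Over all genes, 32.5% were called in injured and 21.3% in naive ganglia. H2-Ea-ps, the class II gene that C57 mice do not express, was at 0.0169, 0.0073, 0.0266 and 0.0184 FPKM in injured C57 and 6.76, 5.6, 7.49 and 5.92 in injured DBA. Glo1, glyoxalase 1, carried in extra copies by some strains, was 2.11-fold and Alad, an enzyme of haem synthesis with the same kind of variation, 3.37-fold higher in DBA. Gabra2, a GABA receptor subunit, was 2.42-fold, Kcnj9, a potassium channel, 2.29-fold, and Wdfy1 2.38-fold higher. Among those lower were Entpd4 (2.1-fold), Gpnmb and Tyrp1, pigment-cell genes with known variants in DBA (3.42-fold and 4.21-fold), Myo5a (1.32-fold), Mpdz (1.4-fold), Hc (3.99-fold) and Klrd1 (4.37-fold). Hc and Klrd1 were at or under 0.0216 FPKM. Ide and Nnt were not called (adjusted p = 0.0821 and 0.557).

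Genes called and at least 2-fold apart were also counted by position, in windows of 2 Mb. The windows named here were picked because they held the most such genes. Over all genes, 200 of 27046 were called and at least 2-fold apart. In the 2 Mb from 34000001 to 36000000 on chromosome 17, which hold the MHC, 9 of 175 genes tested were at least 2-fold apart, all 9 higher in DBA, and in the next 2 Mb 8 of 87 were, again all higher. H2-Q2, in the first of these, was at 0.582, 0.516, 0.534 and 0.54 FPKM in injured C57 and 3.79, 3.74, 5.15 and 3.59 in injured DBA. In the 2 Mb from 42000001 to 44000000 on chromosome 4, which hold the Ccl21 copies, 9 of 82 were at least 2-fold apart and all were lower in DBA. Small RNAs and pseudogenes led the ranking over all genes in both directions. Snord73a, a small nucleolar RNA, was at 10.8, 12.6, 13.4 and 11.5 FPKM in injured C57 and 1.04, 1.69, 0.826 and 1.53 in injured DBA, and the ribosomal pseudogene Rpsa-ps4 at 12.4 to 15.01 and 1.99 to 2.78. Such copies are near-identical to other genes, reads of DBA were aligned to a reference of the C57 type, and which copy a read came from is uncertain.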

How the data were processed

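Whole dorsal root ganglia were profiled by RNA sequencing of total RNA extracted with Trizol and prepared by a standard Illumina protocol, per the labels' protocols. Reads were aligned with STAR 2.3.0 to mm10, per the submitters' processing notes. No source used here names the counter, the annotation behind it, whether strand was used or what became of reads fitting several genes, so overlapping and antisense genes cannot be told apart. The authors deposited FPKM values for 38215 genes in 24 samples, and each sample's own file equalled the series table.

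FPKM times the genomic span in GENCODE M21 (95.3% of IDs found) gave whole reads within 0.05 for 67.8% of low values, against 10.0% by chance. The span was therefore taken as the kilobase term, and library totals of 51.37 to 145.4 M reads and estimated reads per gene were derived from it. They are not counts, so the main test was run on FPKM, and estimated reads entered the filter, the rule for genes present in one group, and alternatives (voom and a CPM scale). A gene was tested with 10 or more estimated reads in at least 4 of the 24 samples (FPKM of 0.1 where no span was known). This kept 27046 genes and removed 11169. A group-means model was fitted to log2(FPKM + 1) of all 24 samples with limma 3.58.1 and statmod 1.5.0 in R 4.3.3, with robust, mean-dependent empirical Bayes variances, two-sided p-values and Benjamini-Hochberg adjustment per comparison. Tested on simulated data for the injured comparison (26139 genes), it recovered 91% of 1.5-fold and 100% of 3-fold changes. The changed genes were drawn only from those above a set mean level. Every simulated gene had the same dispersion, and no other gene differed between groups. Recovery at low levels or with the spread of the real genes was therefore not tested.

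The samples compared, the gene lists and the tests were chosen with earlier results of these data known. Genes were named by a rule. It took the 12 largest differences each way among called genes without overlap, genes at 3 or fewer reads in every sample of one group and 50 or more in every sample of the other, the 8 largest called interactions each way with the sign of the injured difference, up to 4 called members and the defining markers of each list, and all strain-variant genes. The 12 largest differences each way of protein-coding genes, and the Hox and mast cell lists, were added after values were seen. Of 540 genes in 32 lists, 537 were matched and 534 tested. Some genes that the rule takes are not reported here.

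Same-numbered injured C57 and DBA samples deviated together from their group means (correlations of 0.124 to 0.278 in 4 pairs), so the numbers may pair them. This rests on the data, as no label says what a number stands for. Same-numbered naive samples did not deviate together (-0.247 to 0.165). The main fit held no term for the replicate number, so p-values not given as those of a block ignore such a pairing. Alternatives were other pseudocounts, filters and scalings, voom, the compared groups alone, a replicate block and leaving out each sample.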

Additional observations from a re-analysis of the deposited data

Results flagged for a closer look

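A single sample lay far from the other 3 of its group for 21 of the 248 groups looked at (124 named genes in injured C57 and in injured DBA), and chance gives about 1 in 20. In injured C57 replicate 1, Ecel1 was at 6.923 FPKM (the others 5.057 to 5.267), Gadd45a at 22.86 and Mrgprb4 at 4.11. Injured C57 replicate 2 had Nppb at 4.725. Injured C57 replicate 3, the sample of lowest depth, had Sox2 at 5.124, Pmp2 at 4.61 (the others 3.099 to 3.259) and Olfr1033 at 0.1542. Injured C57 replicate 4 had 2210409E12Rik at 1.009. Injured DBA replicate 1 had Gfap at 2.957 (the others 2.172 to 2.23), Car3 at 2.416 and Klrd1 at 0.009967, and replicate 2 had Scn10a at 3.313 and Stmn1 at 7.82. Injured DBA replicate 3 stood out for 8 genes. It had the highest H2-Q2, H2-Q4 and H2-Q6, at 5.154, 7.277 and 5.486, and the highest Crh, at 8.902, and Hoxd9, at 5.312. It had the lowest Gal, at 322.8 (the others 344.9 to 347.2), the lowest Hoxc10, at 1.339, and the lowest Tpsb2, at 1.685. In none of these did a called strain difference change direction when that sample was left out.

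For 63 of the named genes the difference between the strains in injured ganglia differed from that in naive ganglia by the interaction test of limma, 40 above 0 and 23 below 0 on the log2(FPKM + 1) scale. Of these calls, 48 were kept under every setting. The rest, among them those of Npy, Crh and Cyp26a1, are not marked as such in the values that follow. Where a gene is low in naive ganglia, a constant ratio between the strains can also give an interaction on this scale. Among peptides the interaction was 1.96 for Gal, 1.73 for Ucn2, 1.08 for Npy, 1.02 for Adcyap1, 0.74 for Vgf, 0.67 for Nts and 0.61 for Crh. It was 1.51 for C1ql2, 1.20 for Cyp26a1, 1.15 for Fgl2 and 1.14 for Cxcl14. Among factors and growth genes it was 1.03 for Fos, 0.76 for Cebpd, 0.61 for Jun, 0.92 for Tubb6, 0.49 for Gadd45a, 0.54 for Ier3 and 0.32 for Gap43. Among cytokine and growth-factor genes it was 0.88 for Socs3, 0.18 for Gdnf, 0.21 for Csf1 and 0.66 for Fst.

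Among glial and matrix genes the interaction was 1.37 for Gfap, 0.70 for Vim, 0.67 for Nes, 0.44 for Sox2, 0.27 for Kcnj10, 0.84 for Col1a1 and 0.54 for Col1a2, and it was -0.35 for Glul. Among immune, mast cell and cell-cycle genes it was 1.22 for H2-Ea-ps, 0.51 for H2-Q2, 0.67 for Gm11127, 0.36 for C3, 0.71 for C4b, 1.07 for Mcpt2, 0.55 for Cma1, 0.62 for Ccnd1, 0.15 for Top2a and 0.20 for Mki67. Below 0 among neuronal genes were Htr3a at -0.95, Mrgprb4 at -0.92, Tac1 at -0.69, Scn11a at -0.56, Prdm12 at -0.39, Calcb at -0.39, Stmn1 at -0.26 and Cd55 at -0.51. The Hox genes Hoxd10, Hoxc11, Hoxd11 and Hoxd9 were at -1.41, -1.07, -0.74 and -0.35. Also below 0 were Tmem88b at -1.53, AL646096.1 at -1.42, Scpep1 at -1.13, 2210409E12Rik at -1.10, Car3 at -1.10, Gm13644 at -1.09, Mmp25 at -0.58, Aqp1 at -0.35, Ppp1r3e at -0.20 and Klrd1 at -0.017. Nnt was at 0.023.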

How the results depend on the processing

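The 8782 calls for injured DBA against injured C57 came to 6753 to 8996 under other settings and 7719 to 8400 with 1 sample left out, and the 5769 naive calls to 4396 to 6008 and 4877 to 6059. The number at least 2-fold apart, 200, was 691 with log2(FPKM + 0.1), 600 with log2(CPM + 0.5), 1756 with voom and 192 to 207 with 1 sample left out. Interaction calls came to 1633 to 2486, and 1941 to 2747 with 1 sample left out, against 2443. Those above 0 were 944 with voom (48.6% of its calls) and 971 with the filter at FPKM 0.1, against 1456 (59.6%). No scaling moved the median of all genes by over 0.1, on a scale that draws genes of low FPKM toward 0. The share of calls higher in injured DBA did move, from 56.0% to 49.8% with median-ratio scaling.

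With the replicate block 8972 genes were called in all 24 samples. In the 8 injured samples alone with the block, added after seeing the data, 7650 were called, 6711 of them in the same direction as among the 8782. There 9 cell-cycle genes were higher in place of 15 and 4 mast cell markers in place of 7. Mki67, Olfr1033, Tpsb2, Mcpt4 and Stat3 lost the call, Sprr1a gained it, and no other of the 124 genes named with values changed call. Olfr1033, Stat3 and Sprr1a changed likewise with the compared groups alone and no block. Nociceptor genes lower were 20 or 21 under every setting, fibroblast genes higher 10 or 11, and reactive glia genes higher 7 to 10.

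Of 118 named genes called, 111 kept the call under every setting and 0 changed direction. Besides the genes lost with the block, these were Car3, lost with log2(CPM + 0.5), and Hoxd9, lost with any of 4 samples left out; Stat3 was lost in the same way with any of 5. Ide, not called, was called without injured C57 replicate 4. Atf3, not called, ranged from -0.024 to 0.094 and Ecel1, not called, from -0.064 to 0.065 with 1 sample left out; Atf3 was -0.005 without injured DBA replicate 1. Of 63 named interaction calls, 48 were kept under every setting, and that of Npy was -0.109 with voom. The causes were not tested. Values that rest on a few reads are limited by depth, most of all in injured C57 replicate 3.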

Other observations

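Of 3965 genes called in both injured and naive ganglia, 123 differed between the strains in opposite directions. Ier3, an early-response gene, was 1.28-fold the C57 level in injured DBA and 0.845-fold in naive DBA. Tubb6, a tubulin, was 1.46-fold and 0.618-fold.

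The share of tested genes called between injured groups ranged from 25.3% on chromosome X to 37.4% on chromosome 3, beside 32.5% over all genes. Of the genes tested, 22 of 1998 on chromosome 7 were called and at least 2-fold apart, and 21 of 1276 on chromosome 17. The counts were 20 of 1915 on chromosome 4 and 17 of 912 on chromosome 12, beside 200 of 27046 over all genes. Of 24 oxidative and glutathione enzymes, 5 were called higher and 4 lower in injured DBA, and 10 and 4 in naive DBA. The share called in injured DBA was 37.5%, near the 32.5% over all genes, and 21.3% of all genes were called in naive DBA. The number lower in injured DBA was 2 without injured C57 replicate 2 or 3 or injured DBA replicate 1, 3 or 4.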
